A study of Sus scrofa with 14 samples.

Results

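Fresh sow milk held myeloid cells that carried RNA of ARG1, the arginase that splits arginine into ornithine and urea, or of IL10, a cytokine that dampens inflammation. They were taken as the milk cells with UMIs in at least 3 of ARG1, IL10, TIMP1, MS4A7, CTSL, CYP1B1 and CSF3, ARG1 or IL10 among them, and with 0 UMIs summed over CLDN4, EPCAM, CD3D, MMP8 and GPNMB. A UMI is a tag that marks a single captured RNA molecule. The rule was met by 1741 of 32085 milk cells that had 300 or more detected genes and no more than 25% of their UMIs from mitochondrial genes, which is 5.43%. Of these cells, 254 came from the library of L0 and 1487 from that of L20. The measured counts of the 12 genes chose the cells, so the levels of those genes are given as a description.

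Myeloid cells that express arginase compete for arginine, which T cells and the enzymes that make nitric oxide also use. Interleukin 10 acts through the receptor chains IL10RA and IL10RB and STAT3, and lowers the output of inflammatory cytokines from macrophages. Milk is known to carry macrophages, neutrophils, T cells and shed epithelial cells, and the myeloid cells among them change as colostrum gives way to mature milk.

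The series covers the mammary gland and milk of multiparous sows in their second breeding cycle, with no genetic change and no treatment. Milk was sequenced from single cells at L0, the day of farrowing on which colostrum is secreted (day 0 of lactation), and at L20 (day 20 of lactation), with 1 library at each stage. Nuclei of the gland were sequenced from 2 sows at each of day 90 of gestation (G90), L0, L20, and 2 and 7 days after natural involution began (PI2 and PI7). The labels call the milk libraries mammary gland and the study's methods describe a single milk sample at each stage, so the 2 milk libraries have no replicate and no test between them was possible. The L0 library held 22257 barcodes and 84971814 UMIs, and the L20 library held 18733 barcodes and 46923887 UMIs. The libraries shared 284 barcode sequences, which 3 cells of the rule carried at L0 and 17 at L20, and no barcode met the rule in both. All intervals given are 95% intervals of counting error alone, exact for Poisson counts, shares (Clopper-Pearson) and ratios. They do not cover the spread between sows. Those of CPM and of ratios also leave out the spread of UMIs between cells of a library, so they are too narrow where few cells hold many UMIs.

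The share of the cells was 1.45% of 17571 cells at L0 (interval 1.27% to 1.63%) and 10.3% of 14514 cells at L20 (9.76% to 10.8%). The intervals cover the counting of cells within 1 library per stage. The cells of the rule were deeper than the other milk cells, with a median of 2616 UMIs and 877 genes at L0 and 3083 UMIs and 893 genes at L20, against medians of 1319 and 1212 UMIs in the rest. When each cell of at least 1000 UMIs was first thinned to 1000 UMIs, the shares were 1.05% (136 of 13004) and 12.5% (1332 of 10648). Cells under 1000 UMIs dropped out of these counts, so the set of cells changed along with the depth. With at least 2 of the 7 genes in place of 3 they were 5.94% and 15.4%, and with at least 4 they were 0.222% and 7.57%, so the distance between the libraries depends on the number of genes asked for. Most cells at L0 met the rule at its edge, with exactly 3 of the 7 genes in 84.6% of them, against 26.2% at L20. Just outside the rule stood 789 cells at L0 and 747 at L20 that had 2 of the genes, and the excluded genes kept out 209 and 676 cells that met the rest of the rule. Of those, 111 at L0 and 585 at L20 carried GPNMB, a gene of lipid-laden macrophages.

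**Figure D1:**
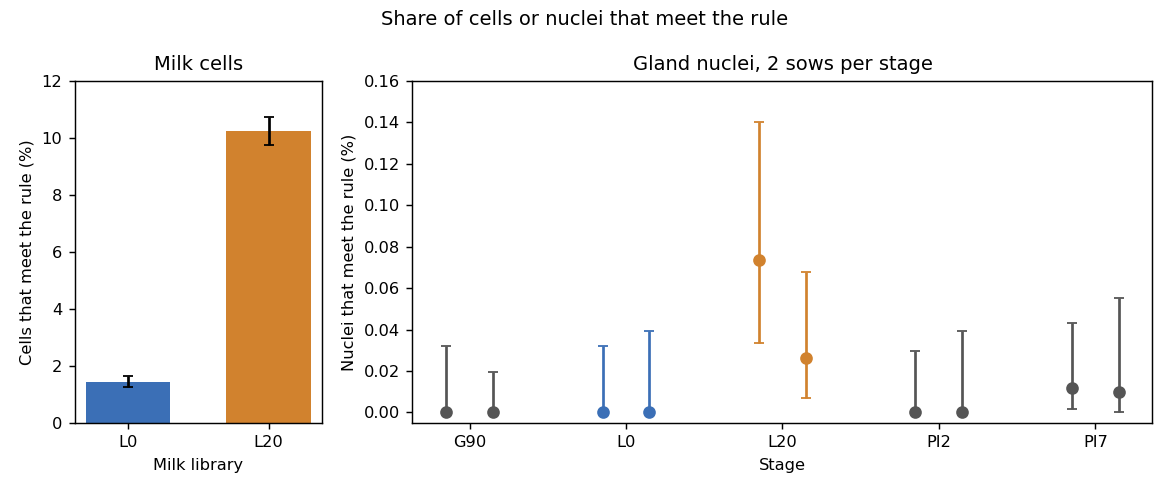
Share of milk cells (left, bars) and of gland nuclei (right, 1 point per sow) that met the rule, in percent on linear axes of different scale, with 95% counting intervals. The milk share was 1.45% at L0 and 10.3% at L20, and the gland share stayed at or under 0.0738%. Milk shares are of whole cells and gland shares of nuclei, so they cannot be compared directly.

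The condition on ARG1 or IL10 was met through ARG1 in nearly all cells. At least 1 UMI of ARG1 was found in 98.4% of the cells at L0 and 98.5% at L20. Its level over the summed UMIs of the cells was 3841 counts per 1000000 UMIs (CPM, interval 3703 to 3984) at L0 and 5618 CPM (5556 to 5681) at L20. ARG1 alone met the ARG1 or IL10 condition in 197 cells at L0 and 1133 at L20, IL10 alone in 4 and 23, and both in 53 and 331. The cells held 17.8% of all ARG1 UMIs of the kept cells at L0 and 57.5% at L20, so much of the ARG1 RNA at L0 lay in cells outside the rule. IL10 had 247 CPM (213 to 285) at L0 and 316 CPM (302 to 331) at L20, with a UMI in 22.4% and 23.8% of the cells, and the cells held 23.9% and 68.2% of its UMIs. A single cell held 58 of the 187 IL10 UMIs of the chosen cells at L0. In the annotation of Sscrofa11.1 used for positions, ARG1 lies on the reverse strand of chromosome 1 at 32006035 to 32028983 and IL10 on the reverse strand of chromosome 9 at 67400727 to 67405941.

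The window of 250 bases before the ARG1 start, at chr1:32028984-32029233 on the reverse strand, is shown because ARG1 is the gene that nearly every chosen cell carries, and none of 5 searched motifs was found in it. These were the AP-1 motif TGACTCA, the core GCGTG that the aryl hydrocarbon receptor binds, the E-box CACGTG of lysosomal genes, the C/EBP motif TTGCNNAA and an NF-kB motif, searched on both strands. They were held by 3.04%, 31.2%, 6.16%, 8.38% and 1.58% of the 20664 windows of the same length before RefSeq genes of Sscrofa11.1. Windows before other genes of the rule were searched in the same way, and some of them held a motif.
ARG1: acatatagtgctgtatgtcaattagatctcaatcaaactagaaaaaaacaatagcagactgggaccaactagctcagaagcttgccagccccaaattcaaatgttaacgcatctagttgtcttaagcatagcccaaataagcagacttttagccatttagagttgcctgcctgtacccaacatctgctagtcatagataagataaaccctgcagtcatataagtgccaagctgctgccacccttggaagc

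TIMP1 codes for a secreted inhibitor of metalloproteinases, and was the most abundant gene of the rule. It had 7943 CPM (7744 to 8147) at L0 and 30409 CPM (30265 to 30555) at L20, a ratio of 3.83 (3.73 to 3.93), and at most 434 and 1242 UMIs in a single cell. At 1000 UMIs per cell, 81.6% of the cells at L0 and 92.1% at L20 had a UMI of TIMP1. TIMP1 was also higher at L20 in the other milk cells, with 257 CPM at L0 and 2780 CPM at L20, whereas GPNMB cells had 635 and 428 CPM. RefSeq places TIMP1 inside the span of SYN1 on chromosome X, and MS4A7 inside that of MS4A4A on chromosome 2.

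The 3 genes of the rule that stood further apart were CTSL, MS4A7 and CSF3. CTSL, a lysosomal cysteine protease, had 803 CPM at L0 and 6827 CPM at L20, a ratio of 8.50 (7.84 to 9.22). MS4A7, a membrane protein of macrophages, had 164 and 1131 CPM, a ratio of 6.90 (5.78 to 8.32), and at 1000 UMIs per cell a UMI in 9.6% and 44.5% of the cells. CSF3, the growth factor that drives neutrophil output, had 30.4 CPM (19.3 to 45.6) from 23 UMIs at L0 and 233 CPM (221 to 246) at L20, a ratio of 7.67 (5.09 to 12.2). CYP1B1, a monooxygenase induced through the aryl hydrocarbon receptor, had 264 and 530 CPM, a ratio of 2.01 (1.74 to 2.33). The median ratio of the 4435 genes with at least 50 UMIs in the higher library was 1.21 (0.28 on the log2 scale), and since these genes chose the cells nothing is read from where they stand beside it. Among cells with exactly 3 of the 7 genes in both libraries, a comparison added after the data were seen, CSF3 and CYP1B1 turned the other way, with ratios of 0.326 and 0.641. In those cells the ratios of CTSL, MS4A7 and TIMP1 were 4.22, 2.08 and 2.30. How many rule genes a cell carries and how high these genes stand cannot be told apart here.

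The genes of the rule were also counted in other kinds of milk cell. The shares in the chosen cells were set by the choice, so they are given beside those of other cells as a description. Epithelial cells, taken as cells with UMIs of EPCAM and CLDN4 and none of PTPRC, had a UMI of ARG1 in 17.7% at L0 and 27.6% at L20, at median depths of 18255 and 11036 UMIs. At 1000 UMIs per cell, those shares were 1.27% and 1.57%, against 80.4% and 85.6% of the chosen cells. T cells, at medians of 1977 and 2022 UMIs, had ARG1 in 4.35% and 8.63%. IL10 at 1000 UMIs was found in 13.6% and 13.9% of the chosen cells, against 0.273% and 0% of epithelial cells (0 of 191, which allows up to 1.57%). TIMP1 was found in 2.46% and 7.85% of epithelial cells and in 22% of T cells at L20. CSF3 at L0 was found in 2.4% of the chosen cells and 1.91% of epithelial cells and at L20 in 10.5% and 2.09%.

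**Figure D2:**
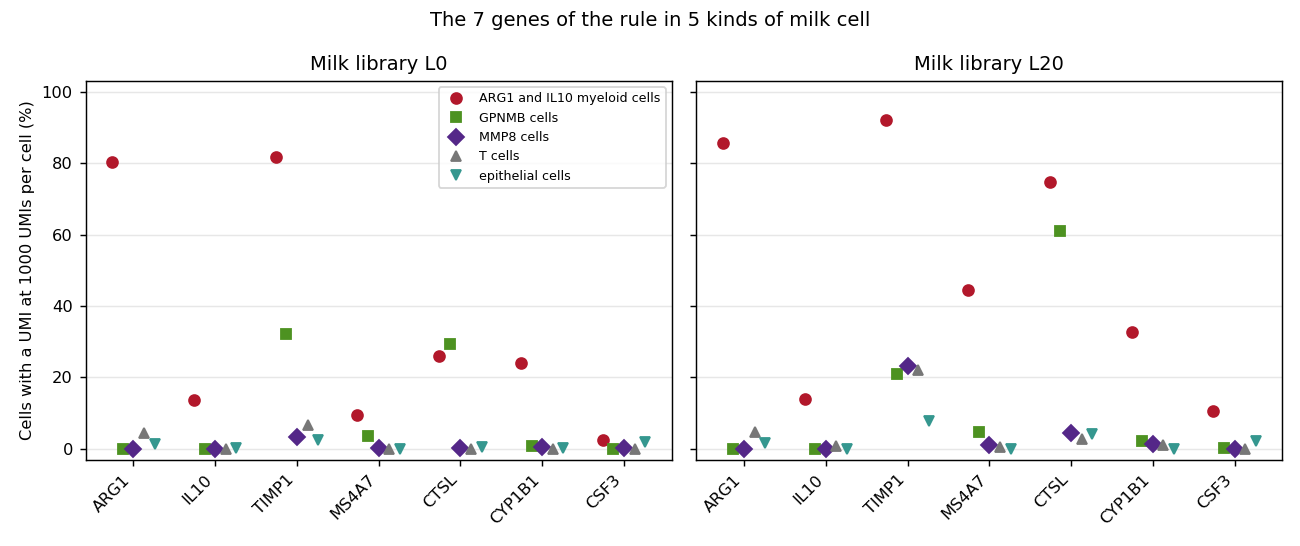
Share of cells with a UMI of each rule gene (vertical axis, percent) after thinning to 1000 UMIs per cell, for 5 kinds of milk cell (symbols) in the L0 library (left) and the L20 library (right). ARG1 and IL10 are 0 in GPNMB and MMP8 cells because those classes were defined without them. CTSL is shared with GPNMB cells, at 61.0% of them at L20.

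The label myeloid was checked against markers that the rule did not use. TYROBP, an adapter of myeloid receptors, had 2854 CPM at L0 and 2247 CPM at L20, and FCER1G had 1574 and 2359 CPM. CD14, the coreceptor for lipopolysaccharide, had 875 and 669 CPM, and CSF1R, the receptor of the macrophage growth factor, had 236 and 331 CPM. All 11 listed genes of the general myeloid list were detected, with a summed level of 10899 and 10371 CPM. The sum was 3742 and 7998 CPM in the rest of the milk cells, 4728 and 3914 CPM in T cells and 293 and 284 CPM in epithelial cells. Only 2 of the 11, CD14 and CSF1R, were at least 2-fold higher than in the rest in both libraries, and 0 were lower. CD163, the haemoglobin scavenger receptor, had 614 CPM at L0 and 1103 CPM at L20 and a UMI in 35.8% and 50.6% of the cells. VCAN, a proteoglycan of monocytes, had 540 and 891 CPM, and F13A1, the coagulation factor subunit of monocytes and macrophages, had 1163 and 1888 CPM. MRC1, the mannose receptor of tissue macrophages, was low, with 5.29 and 29.2 CPM. TREM2 had 1.32 and 4.32 CPM, MARCO 9.25 and 4.68 CPM and SIGLEC1 5.29 and 10.8 CPM. Other macrophage genes stood further up, with CD68 at 337 and 791 CPM, MERTK at 176 and 201 CPM, VSIG4 at 128 and 58.2 CPM and MSR1 at 102 and 47.0 CPM. Of 14 macrophage genes tested, CSF1R, CD163, MERTK and SIGLEC1 were at least 2-fold higher than in the rest of the milk cells in both libraries and 1, APOE, was lower, and of 7 monocyte genes 3 were higher and 1, CD36, was lower. Of 12 genes of dendritic cells and MHC class II, 1, CD86, was higher than in the rest and 0 were lower. CD74, the class II invariant chain, had 2206 and 1705 CPM, against 1179 and 2152 CPM in the rest. SLA-DQB1, a class II chain, had 962 and 539 CPM and a UMI in 22.1% of the cells in each library. Over all genes the shares higher and lower were 4.58% and 8.46%, and the choice of the cells bears on them.

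Neutrophil genes were present too. S100A12 had 13019 CPM at L0 and 14489 CPM at L20, and S100A8 had 2679 and 4191 CPM. MMP8 cells, which have a UMI of MMP8 and of S100A8 and none of ARG1, IL10 or the other excluded genes, had 50416 and 43499 CPM of S100A12. The neutrophil list had 8 of its 11 listed genes detected in the cells. Its summed level was 17277 and 19400 CPM, against 71369 and 63435 CPM in MMP8 cells. MPO and CD177 were at 0, but MMP8 cells had 0 of MPO too and 2.37 and 0 CPM of CD177. These 2 genes thus do not set the kinds apart. Of 8 neutrophil genes tested, S100A8 and S100A12 were at least 2-fold higher than in the rest in both libraries. Of the same 8, 3 were lower, among them MMP8 by the rule, beside 4.58% and 8.46% of all genes. Epithelial markers summed to 74.0 and 6.84 CPM with EPCAM and CLDN4 at 0 by the rule. T and NK markers summed to 152 and 133 CPM with CD3D at 0 by the rule. NKG7 held most of that sum, with 149 and 122 CPM, against 808 and 642 CPM in GPNMB cells. B and plasma cell markers summed to 44.9 and 12.6 CPM with CD79B and MS4A1 at 0. Markers of mast cells, basophils and eosinophils summed to 26.4 and 20.9 CPM. HDC, GATA2 and EPX were at 0, and at 1.26 CPM or less in the other kinds of milk cell. MS4A2 held most of the sum, with 21.1 and 20.2 CPM against 1.94 and 8.10 CPM in the rest of the milk cells. It was also at least 2-fold higher than in GPNMB cells and MMP8 cells in both libraries. Whether RNA of any of these kinds of cell added to a difference below was not tested.

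Of the 15 genes that stood furthest above the rest of the milk cells in both libraries, 5 were genes of the rule. EREG, a ligand of the epidermal growth factor receptor, had 148 CPM at L0 and 140 CPM at L20, against 8.10 and 15.7 CPM in the rest. NRP1, a coreceptor of semaphorins and VEGF, had 411 and 337 CPM against 39.8 and 38.4 CPM. PTGS2, the inducible cyclooxygenase, had 361 and 110 CPM against 18.5 and 14.0 CPM. VCAN, F13A1, SH3PXD2B, SLC2A6, FYN, JAG1 and RNF121 completed the set, at 7.38 to 16.4 times the rest. RNF121 overlaps IL18BP in RefSeq, so its reads may belong to either gene. At this measure, 669 of 14602 genes (4.58%) were at least 2-fold higher and 1236 (8.46%) at least 2-fold lower in the cells in both libraries, and the cells were chosen from the same counts.

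GPNMB cells were taken as cells with at least 2 UMIs of GPNMB and none of ARG1, IL10 or the other excluded genes. There were 123 of them at L0 and 393 at L20, with medians of 3977 and 10015 UMIs. Against them, 738 of 7906 genes (9.33%) were at least 2-fold higher in the ARG1 and IL10 myeloid cells in both libraries. Another 1735 (21.9%) were at least 2-fold lower. Cells with GPNMB that met the rest of the rule, 111 at L0 and 585 at L20, were in neither kind. The contrast leaves out these cells, which carry genes of both kinds, and was not repeated with them. Genes of NF-kB signalling were higher, with 12 of 18 past 2-fold and 0 lower. NFKBIA, the inhibitor that NF-kB itself induces, had 3037 CPM at L0 and 5074 CPM at L20 against 752 and 812 CPM in GPNMB cells, and NFKBIZ had 757 and 915 CPM against 110 and 134 CPM. Early response genes had 11 of 15 higher, cytokines 9 of 12 and chemokines 7 of 13, with 0 lower in each. CSF3, a gene of the rule, is among the 9 cytokines. CCL4, a chemokine that draws lymphocytes and monocytes, had 7000 and 6440 CPM against 832 and 2381 CPM, and CXCL2, which draws neutrophils, had 3260 and 4378 CPM against 694 and 583 CPM.

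Genes of the IL-10 axis were higher in 12 of 17 and lower in 1, where IL10 itself is among the 12 by the choice of both kinds of cell. IL10RA had 221 and 134 CPM against 82.1 and 46.4 CPM in GPNMB cells, STAT3 had 225 and 256 CPM against 85.9 and 65.2 CPM, and NFIL3, a repressor induced by IL-10, had 1065 and 651 CPM against 343 and 180 CPM. The member that was lower was MAF, a transcription factor of macrophages. Lysosomal genes stood the other way, with 12 of 23 lower and 1 higher. CTSD had 1196 and 637 CPM against 6854 and 10924 CPM, and LGMN had 318 and 815 CPM against 3192 and 3026 CPM, while CTSC, the protease that activates granule serine proteases, was the member that was higher. Lipid handling genes were lower in 8 of 18 and higher in 4, where GPNMB itself is among the 8 by definition. FABP4, a fatty acid carrier, had 0 and 87.7 CPM against 920 and 9804 CPM, and PLIN2, which coats lipid droplets, had 739 and 1223 CPM against 1860 and 2909 CPM. Of the macrophage list, 8 of 14 genes were lower and 1, CD163, was higher. APOE had 107 and 62.1 CPM against 2076 and 4569 CPM.

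**Figure D3:**
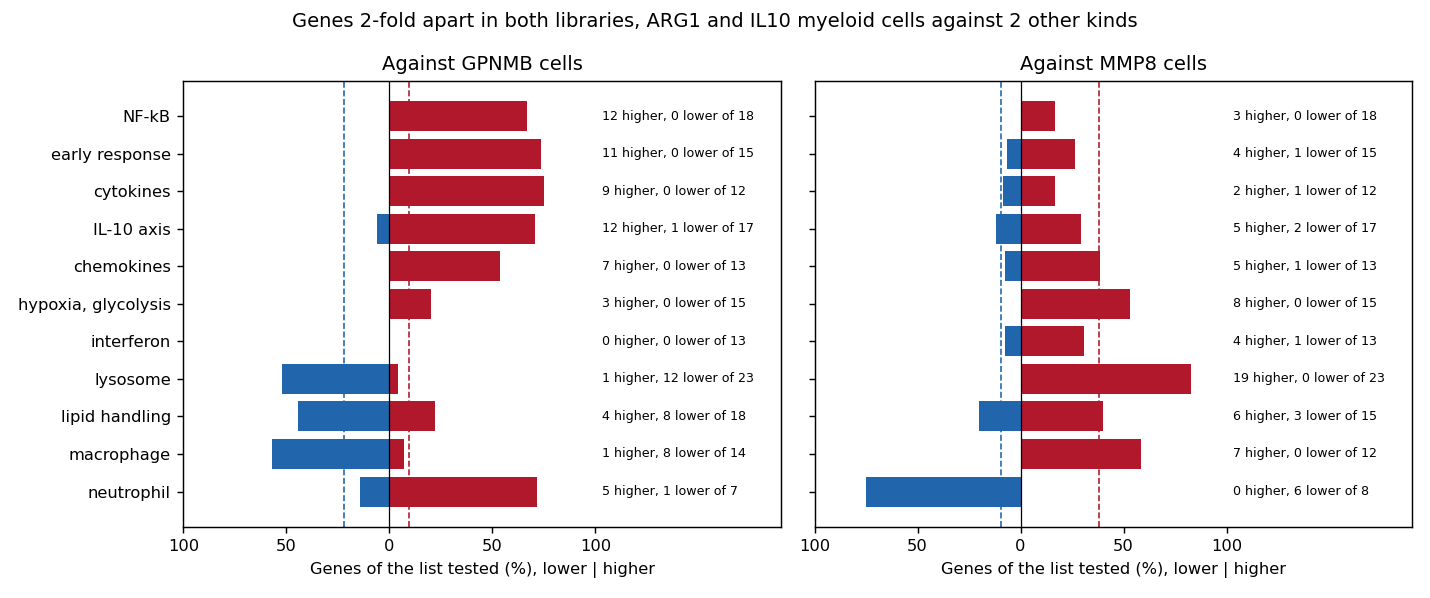
Genes of 11 lists that were at least 2-fold higher (red, to the right) or lower (blue, to the left) in the ARG1 and IL10 myeloid cells in both libraries, as a percent of the genes tested in each list, against GPNMB cells (left) and MMP8 cells (right). The counts include genes that defined the cells (IL10, CSF3, GPNMB, MMP8, S100A8 and CTSL). Dashed lines mark the percent over all genes tested, 9.33% and 21.9% against GPNMB cells and 38.3% and 9.47% against MMP8 cells.

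Against MMP8 cells, which numbered 1599 at L0 and 446 at L20, 2595 of 6782 genes (38.3%) were at least 2-fold higher and 642 (9.47%) at least 2-fold lower. Lysosomal genes were higher in 19 of 23 and lower in 0, CTSL of the rule among the 19, with CTSB at 1524 and 1767 CPM against 43.4 and 41.2 CPM. NF-kB genes were higher in 3 of 18, below the share over all genes, and SOD2, the mitochondrial superoxide dismutase, had 889 and 3885 CPM against 1210 and 3865 CPM. Genes of the IL-10 axis were higher in 5 of 17, also below that share, and lower in 2. IL10 is among the 5 by the choice of both kinds of cell. MMP8 cells had 316 and 464 CPM of STAT3, 1566 and 1974 CPM of NFIL3 and 204 and 104 CPM of IL10RA. Neutrophil genes were lower in 6 of 8 and higher in 0, where MMP8 and S100A8 are among the 6 by the definition of MMP8 cells. CXCL8 had 3351 and 4466 CPM against 21399 and 11547 CPM, and ALOX5AP, which serves leukotriene synthesis, had 950 and 127 CPM against 6068 and 3244 CPM.

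Between the stages, 779 of 4435 genes (17.6%) were at least 2-fold higher at L20 in these cells and 308 (6.94%) at least 2-fold lower. The split depends on the scale and on the count minimum. With a median of ratios over genes in place of total UMIs it was 495 higher and 484 lower, and with the same CPM minimum in both libraries, a setting chosen after seeing the data, 226 genes were higher and 308 lower. The differences below describe 2 libraries, and the stage, the sow and the library cannot be told apart.

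Chemokines split between the stages. CCL2, which draws monocytes, had 526 CPM (476 to 580) at L0 and 2689 CPM (2646 to 2732) at L20, a ratio of 5.11 (4.63 to 5.66), and a UMI in 11.4% and 36.2% of the cells. CCL2 was also higher at L20 in the rest of the milk cells (26.5 and 804 CPM) and in GPNMB cells (177 and 1071 CPM). CCL5, which draws T cells, went the other way, with 3869 and 1546 CPM, 2.50-fold lower at L20. CCL4, CXCL8 and CXCL2 had ratios of 0.92, 1.33 and 1.34. Of the 12 chemokine and receptor genes tested, 3 were higher and 2 lower, beside 17.6% and 6.94% of all genes, and their median ratio of 1.35 was close to that of all genes. CXCR4, the receptor that holds cells in tissue, was the other lower gene, with 718 CPM (658 to 780) at L0 and 172 CPM (162 to 184) at L20, 4.16-fold lower.

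Of 12 cytokine genes tested, 4 were higher at L20 and 3 lower, beside 17.6% and 6.94% of all genes, and CSF3 of the rule is among the 4. EBI3, a subunit of interleukin 27 and interleukin 35, had 9.25 CPM from 7 UMIs at L0 and 46.3 CPM at L20, a ratio of 5.0 (2.39 to 12.6), and OSM had 11.9 and 33.8 CPM. IL6 had 0 UMIs at L0 and 14.8 CPM at L20, 3.73-fold higher against a floor of 3 UMIs, with a lower interval end of 2.96. With at least 4 rule genes and with exactly 3, IL6 again had 0 UMIs at L0, and the bounds there, 0.973 and 0.362, give no direction. TNF had 110 CPM (87.4 to 136) and 131 CPM (121 to 140), which overlapped. IL1R2, the decoy receptor that traps interleukin 1, had 1341 and 353 CPM, 3.8-fold lower at L20, and CSF1 had 772 and 188 CPM, 4.11-fold lower. In the rest of the milk cells IL1R2 also stood lower at L20, at 525 and 142 CPM.

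NF-kB genes were higher at L20 in 4 of 18 and lower in 0, with a median ratio of 1.54, a count near the 17.6% of all genes called higher. SOD2 had 889 CPM (823 to 959) at L0 and 3885 CPM (3833 to 3937) at L20, a ratio of 4.37 (4.05 to 4.72), and at 1000 UMIs per cell a UMI in 32.4% and 80.4% of the cells. TNFAIP3, the ubiquitin editor that ends NF-kB signalling, had 238 and 707 CPM, a ratio of 2.97 (2.56 to 3.47). NFKB2 and TNIP1 had ratios of 2.26 and 2.00. SOD2 and TNFAIP3 kept the call in all 16 alternatives, but NFKB2 in 13 and TNIP1 in only 7, with lowest ratios of 1.78 and 1.58. In GPNMB cells SOD2 had 287 and 248 CPM, while in MMP8 cells it had 1210 and 3865 CPM and in T cells 81.7 and 318 CPM.

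Enzymes of eicosanoid synthesis were called in both directions. PTGES, the inducible prostaglandin E synthase, had 62.1 CPM (45.6 to 82.6) at L0 and 268 CPM (255 to 282) at L20, a ratio of 4.32 (3.23 to 5.91). TBXAS1, thromboxane synthase, had 226 and 602 CPM, a ratio of 2.67 (2.29 to 3.13), and LTA4H, which makes leukotriene B4, had 51.5 and 175 CPM, a ratio of 3.39 (2.46 to 4.80). ALOX15 had 1 UMI at L0 and 165 at L20, a ratio of 22.5 (3.98 to 893). PTGS2 was 3.27-fold lower at L20 and ALOX5AP 7.5-fold lower (6.75 to 8.33). Of 8 genes tested, 4 were higher and 2 lower, beside 17.6% and 6.94% of all genes. PTGES also had the higher value at L20 in the rest of the milk cells, with 7.43 and 40.8 CPM, while GPNMB cells had 88.4 and 23.2 CPM, and the differences between kinds of cell were not tested.

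Matrix genes had 3 higher and 3 lower of 12, beside 17.6% and 6.94% of all genes, and TIMP1 of the rule is among the 3 higher. The other higher genes were MMP14, a membrane collagenase, with 31.7 and 194 CPM, a ratio of 6.11 (4.08 to 9.58), and THBS1, which activates latent TGF-beta, with 62.1 and 321 CPM, a ratio of 5.17 (3.87 to 7.06). FN1, fibronectin, had 1023 CPM (952 to 1097) at L0 and 54.2 CPM (48.3 to 60.7) at L20, 18.9-fold lower, with a UMI in 24.0% and 4.71% of the cells. PLAU and TGFBI were 4.15-fold and 2.59-fold lower. FN1 in GPNMB cells was also lower at L20, with 1025 and 272 CPM, while the rest as a whole had 75.7 and 95.9 CPM.

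Lysosomal genes were higher at L20 in 7 of 22 and lower in 1, beside 17.6% and 6.94% of all genes, with a median ratio of 1.41, and CTSL of the rule is among the 7. Beside CTSL, they included CTSA, CTSC, NPC2 and LGMN, with ratios of 2.19 to 2.56. CTSC had 803 CPM (741 to 870) and 1852 CPM (1817 to 1889). CST3, cystatin C, which inhibits these proteases, was lower, with 1287 and 330 CPM, a call that was lost without the 8 cells at L0 and 30 at L20 that carried C1q (0.633) and turned with no excluded genes (1.17). CTSD and CTSZ had ratios of 0.533 and 0.514, short of 2-fold. ABCA1, which exports cholesterol, had 404 and 1173 CPM, a ratio of 2.90 (2.59 to 3.26), beside 75.6 and 721 CPM in the rest of the milk cells. PPARG, a lipid-sensing nuclear receptor, had 223 and 53.1 CPM, 4.2-fold lower. FABP4 was at 0 at L0 and 22.1-fold higher at L20 against the floor of 3 UMIs, with a lower interval end of 17.9. The rest of the milk cells had 46.4 and 3158 CPM of FABP4, and the part of their RNA in its level of 87.7 CPM was not tested.

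Of 15 early response genes, 6 were lower at L20 and 1, FOSB, was higher, with a median ratio of 0.586, where 6.94% and 17.6% of all genes were called. JUN had 3012 CPM (2889 to 3138) at L0 and 1076 CPM (1049 to 1104) at L20, 2.80-fold lower. ATF3 was 3.12-fold lower, KLF2 3.69-fold lower (617 and 167 CPM) and NR4A1 4.09-fold lower, while FOS had 2113 and 2741 CPM. The rest of the milk cells had 1423 and 625 CPM of JUN, and MMP8 cells 1252 and 434 CPM. Of 8 glucocorticoid response genes tested, TSC22D3, PER1 and SGK1 were lower and none higher, and DUSP1 lay at a ratio of 0.501. Over 16 alternatives, SGK1 kept the call in 11, with ratios up to 0.944, and TSC22D3 and PER1 in 13 each. H1-3, a linker histone, was the gene with a symbol that stood furthest lower, with 2406 and 51.5 CPM, and H1-2, H2AC6 and H2BC21 were 17.6-fold to 27.3-fold lower. H1-3 was lower at L20 in the rest as well, with 222 and 54.9 CPM.

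**Figure D4:**
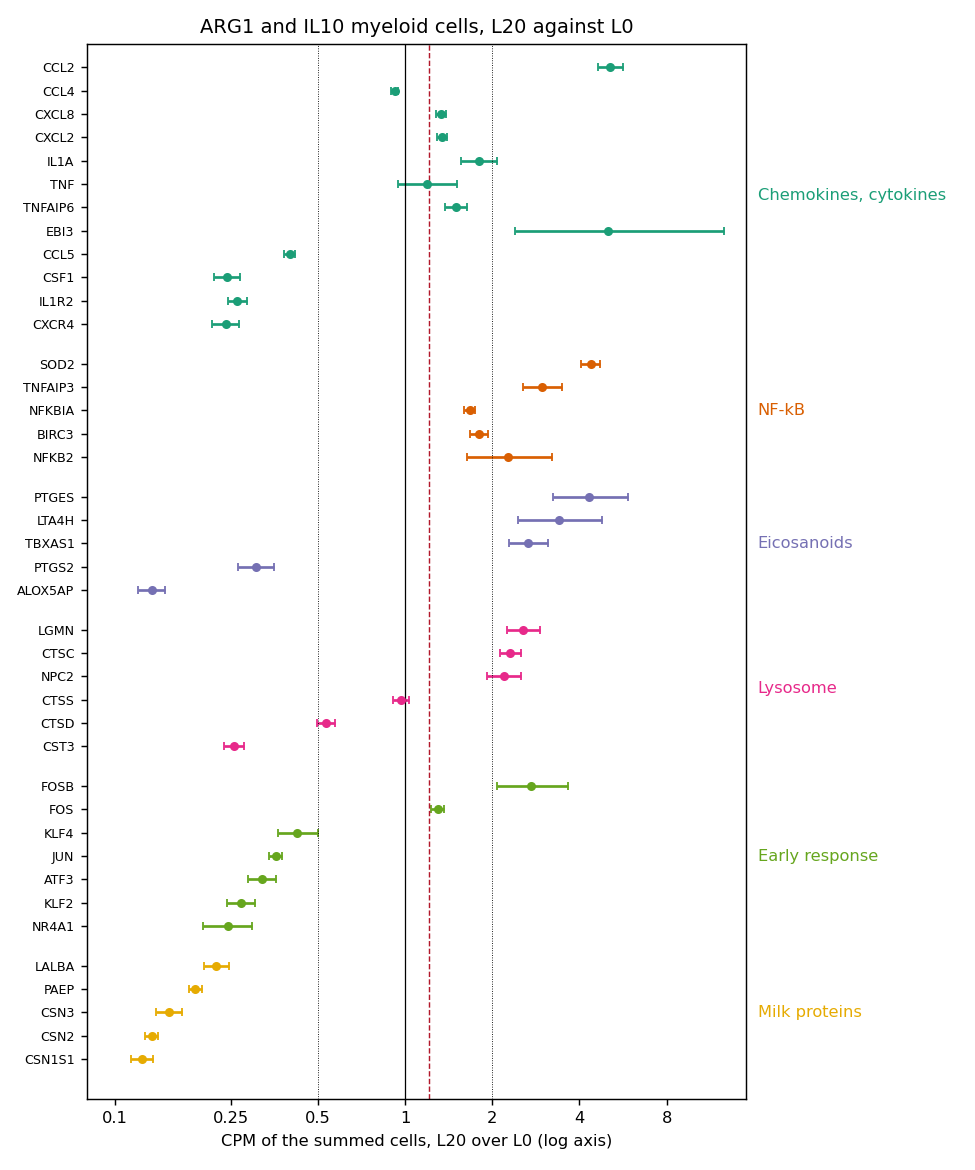
Ratio of CPM at L20 over L0 in the ARG1 and IL10 myeloid cells for 40 genes of 6 groups (log axis), with 95% counting intervals. The solid line marks a ratio of 1, dotted lines 2-fold in either direction, and the dashed line the median of 1.21 over all genes tested. CCL2, SOD2, PTGES and LGMN lie to the right, and JUN, CXCR4, PTGS2 and the milk proteins to the left.

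Among the 10 genes with the largest ratios were some that no list held. PLA2G2D, a secreted phospholipase, had 0 UMIs at L0 and 666 at L20, or 120 CPM. That was 30.2-fold higher against the floor of 3 UMIs, and the lower end of the interval was 24.5. EDN1, the precursor of the vasoconstrictor endothelin, had 9.25 and 160 CPM, a ratio of 17.4 (8.38 to 43.3), while the rest had 14.0 and 84.4 CPM. NEDD4L, a ubiquitin ligase, had 3 and 679 UMIs, a ratio of 30.8 (10.5 to 150). ABTB2, TDRD9, LDLRAD3 and STAT4 each had 1 UMI at L0 and 125 to 376 at L20, and their intervals were wide, as from 9.14 to 2029 for ABTB2.

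Genes of checkpoint and tolerance were higher in 3 of 6 and lower in 0, beside 17.6% and 6.94% of all genes. IDO1, which breaks down tryptophan, had 274 and 658 CPM, a ratio of 2.40 (2.09 to 2.78), and a UMI in 13% and 38.3% of the cells. PDCD1LG2, a ligand of PD-1, had 54.2 and 137 CPM, and CD200R1, an inhibitory receptor, had 6.61 and 45.4 CPM. Over 16 alternatives, IDO1, PDCD1LG2 and CD200R1 kept the call in 14, 15 and 14, with lowest ratios of 1.095, 1.54 and 3.66. Of 16 genes of the IL-10 axis, only IL10RB was higher, with 166 and 402 CPM, and only IL13RA1 was lower, with 132 and 53.8 CPM. STAT3 had a ratio of 1.14 (0.973 to 1.35). Interferon response genes had 3 higher and 1 lower of 12, beside the same 17.6% and 6.94%. MX1, an antiviral GTPase, had 26.4 and 130 CPM, a ratio of 4.92 (3.16 to 8.10), while the rest had 4.96 and 124 CPM, and IFIT2 was 5.10-fold lower. IFIT2 kept the call in 10 of the 16 alternatives, with ratios up to 0.683. Of 11 genes of arginine and polyamine metabolism, ODC1, which turns ornithine into putrescine, was lower, with 447 CPM (400 to 497) and 175 CPM (164 to 186), and SMS was 2.86-fold higher on 3 and 63 UMIs, with an interval of 0.936 to 14.3 that includes 1. ARG2, the mitochondrial arginase, had 84.6 and 83.6 CPM. Of 15 genes of hypoxia and glycolysis, VEGFA and ADM were higher, with ratios of 2.66 and 3.11, and LDHA and EGLN3 lower.

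Milk protein RNA differed between the 2 libraries in these cells. All 5 milk protein genes tested were lower at L20, beside 6.94% of all genes, with CSN2, beta-casein, at 4114 CPM at L0 and 549 CPM at L20 and a UMI in 100% and 63.0% of the cells. Their summed level was 11091 and 1771 CPM in the cells, 13474 and 2206 CPM in T cells and 348897 and 423082 CPM in epithelial cells. T cells and the chosen cells thus carried similar levels in each library. LTF and PGLYRP1, which epithelial cells of milk also express at 2200 and 16979 CPM at L0, were 25.1-fold and 9.60-fold lower at L20 in the cells, and the part of epithelial RNA in their level was not tested.

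Complement C1q was carried by few cells. C1QA, C1QB and C1QC had 95.2, 219 and 209 CPM at L0 and 3.96, 6.84 and 6.66 CPM at L20, which put them among the 10 genes that stood furthest lower at L20. All of their UMIs at L0 lay in 8 of 254 cells (3.15%), and at L20 in 30 of 1487 (2.02%). The 8 cells had 16520 CPM of CST3 against 448 CPM in the other cells at L0, 5667 against 703 CPM of SLA-DQB1, a class II chain, and 8981 against 1832 CPM of CD74, its invariant chain. Over all genes tested, 1.73% were at least 2-fold higher and 16.1% lower in these 8 cells at L0, and 0.883% and 6.62% in the 30 cells at L20. The cells with C1q held 39527 UMIs at L0 and 170873 at L20, against 717212 and 5382312 without. Few genes can reach the count minimum in so small a group, so the shares higher and lower cannot be set against each other. At L20 CST3, SLA-DQB1 and CD74 were also higher in the cells with C1q, with CST3 at 1808 against 283 CPM. Without the cells that carry C1q, left out after the data were seen, the ratio of L20 over L0 was 0.633 for CST3, no longer 2-fold, and 0.342 for PLAU, which then had too few UMIs to be called. CCL8 at L0 lay mostly in those 8 cells, with 114 of 142 UMIs.

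Cells with a UMI of IL10 were compared with cells without it inside each library. A UMI of IL10 counts toward the 3 genes of the rule, so the other rule genes differ by construction. There were 57 of 254 at L0 and 354 of 1487 at L20, at median depths of 2463 and 3378 UMIs against 2661 and 3017 UMIs without IL10. At L20, 28 of 5112 genes (0.548%) were at least 2-fold higher with IL10 and 525 (10.3%) lower, and at L0 18 of 1338 (1.35%) and 141 (10.5%). The cells with IL10 held 179267 UMIs at L0 and 1545448 at L20, against 577472 and 4007737 without. A call needs a minimum of UMIs in the higher group, which is harder to reach in the smaller group with IL10. This limits the genes called higher, so the counts of higher and lower genes cannot be set against each other. SERPINB2, an inhibitor of plasminogen activators, had 171 against 35.2 CPM at L20, a ratio of 4.87 (3.96 to 6.02). At L0 it had 134 against 8.66 CPM, on 29 UMIs in 1.18% of all the chosen cells, too few for a call. AMCF-II, a pig chemokine of the neutrophil-drawing kind, had 128 against 46.8 CPM and 882 against 251 CPM. At L20, IL23A, EBI3, EDN1 and CSF3 were 4.25, 2.74, 3.02 and 2.68 times as high with IL10, and IL6 was 5.0 times as high on 54 UMIs.

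Lower with IL10 were the chemokine CCL2 and others. CCL2 had 50.2 against 674 CPM at L0 and 1481 against 3154 CPM at L20, and SPP1, osteopontin, had 351 against 1136 CPM and 279 against 1011 CPM. IFIT1 had 44.6 against 249 CPM and 42.1 against 184 CPM. Of the interferon list, 6 of 12 genes tested were lower with IL10 at L20 and 0 higher, beside 10.3% and 0.548% of all genes, and at L0 3 of 5 were lower and 0 higher, beside 10.5% and 1.35%. CD163, CCL4 and NFKBIA had ratios of 1.03, 0.963 and 1.12 at L20. Of the macrophage list, 4 of 9 genes were lower with IL10 at L20 and 0 higher, whereas at L0 1 of 7 was lower and 3 were higher. Of the chemokines, 3 of 11 were lower at L20 and 0 higher, and at L0 1 of 9 was lower and 1 higher. Of the cytokines, 4 of 12 were higher at L20, among them CSF3 of the rule, and 0 of 5 were called at L0. Of 18 NF-kB genes 0 were called at L20, and at L0 1 of 10 was lower.

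Cells with CSF3 numbered 13 at L0, where 0.966% of genes were at least 2-fold higher and 17.7% lower than without it, and 282 at L20, with a median of 3556 UMIs against 2990. At L20, 32 of 5152 genes (0.621%) were at least 2-fold higher with CSF3 and 611 (11.9%) lower. The cells with CSF3 held 47454 UMIs at L0 and 1236528 at L20, against 709285 and 4316657 without. The count minimum thus limits these shares in the same way as for IL10. Among the genes with higher values, 4 of heat shock were picked after their values were seen, so no count of such genes is given, with HSP70.2 at 6108 against 1916 CPM, DNAJB1 at 1989 against 571 CPM, HSPH1 at 1768 against 567 CPM and BAG3 at 900 against 272 CPM. Reads of HSP70.2 may be shared with its near-identical copies. IDO1 had 1085 against 535 CPM. CCL2 had 850 against 3215 CPM, a ratio of 0.264 (0.248 to 0.281), SPP1 282 against 958 CPM and MERTK, a receptor for dying cells, 95.4 against 232 CPM. Of the interferon list, 11 of 13 genes tested were lower with CSF3 and 0 higher, and of the macrophage list 6 of 9 were lower.

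**Figure D5:**
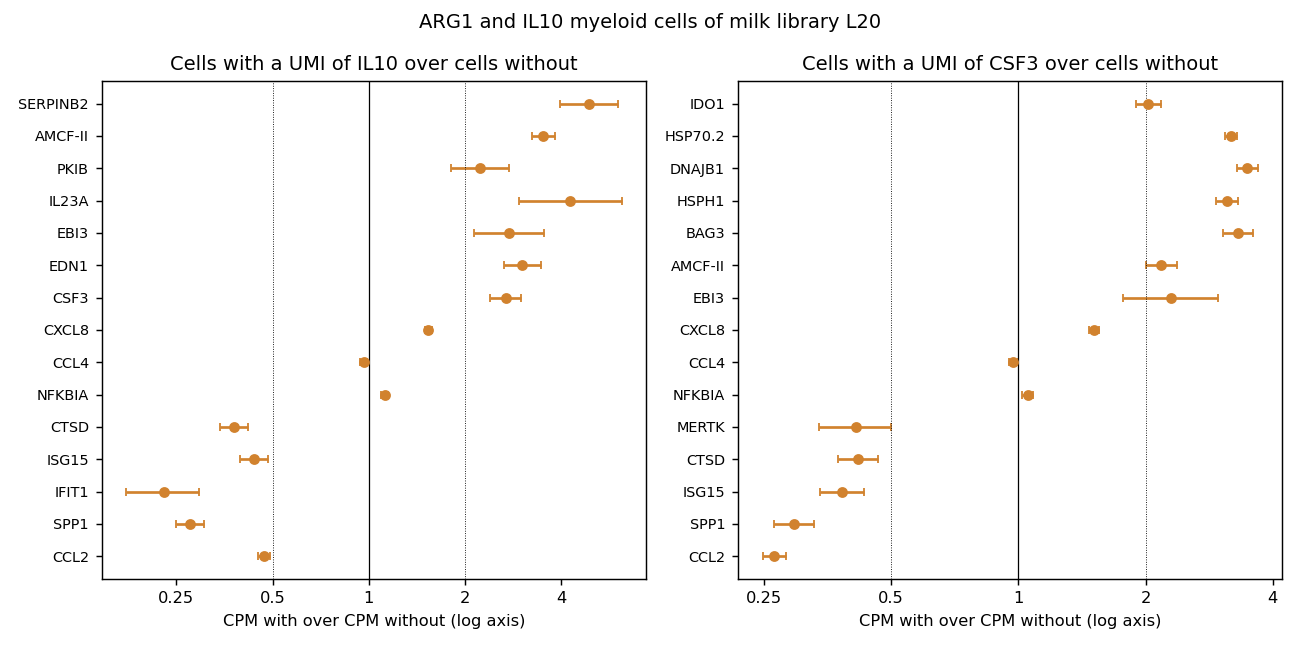
Ratio of CPM in the L20 cells with a UMI of IL10 (left) or CSF3 (right) over those without (log axis), with 95% counting intervals. The solid line marks a ratio of 1 and dotted lines 2-fold in either direction. CCL2, SPP1, ISG15 and CTSD lie to the left in both panels, and CCL4 and NFKBIA stay near 1.

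The same rule was applied to the nuclei of the gland. A rule that counts UMIs in whole cells need not find the same cells from nuclei, so the shares are not set against those of milk. At L20, 9 of 12193 nuclei of 1 sow (0.0738%, interval 0.0338% to 0.140%) and 4 of 15148 of the other (0.0264%, 0.00720% to 0.0676%) met the rule. At PI7 it was met by 2 of 16677 and 1 of 10072 nuclei. The 2 sows of each of G90, L0 and PI2 had 0 of 9332 to 18693 nuclei, which allows a share of up to 0.0161% to 0.0321% by a limit of 3 counts, and of up to 0.0197% to 0.0395% by the upper end of the exact interval. The glands of L20 had the highest shares, on 9 and 4 nuclei, and the interval of the second overlapped those of the other glands. The interval of the first also overlapped those of both PI7 glands and of replicate 2 of L0 and of PI2. Over the 4 glands of lactation the mean share was 0.0251% ± 0.0348 (SD, n = 4), and over the 6 others 0.00365% ± 0.00570 (SD, n = 6), a difference of 0.0214 percentage points with p = 0.267 (two-sided, exact permutation of the glands, 210 splits, smallest possible p 0.00952). ARG1 over all nuclei had 22.2 and 24.0 CPM at L20 and 0.283 to 3.76 CPM in the other 8 glands. IL10 had 1.54 and 2.06 CPM at L20 and 2.27 and 2.95 CPM at PI7, and CYP1B1 12.1 and 16.1 CPM at L20 and 34.7 and 6.81 CPM at PI7, so these genes did not have their highest value at L20.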

How the data were processed

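Milk cells of 2 libraries and gland nuclei of 10 libraries from sows were analysed from the gene by cell matrices that the authors deposited, whose values are whole-number UMI counts. Per the study's methods the authors made them with CeleScope. The submitters' processing notes name Sscrofa11.1, and no source used here gives the annotation release. The 2 sections were not used. Of 25996 gene identifiers of the milk libraries, 14600 had a symbol in the deposited data and 628 were named from a reference list of gene symbols. Cells with under 300 genes or over 25% mitochondrial UMIs were left out. The cells and the gene lists were chosen with earlier results of these data known.

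Counts were summed over the cells of a kind in a library and divided by their total UMIs to give CPM. With 1 milk library per stage there was no test between stages. A gene was called at 2-fold and at least 50 UMIs in the higher library between stages, and against other cells or between subsets at 2-fold in the same way, in both libraries for other kinds of cell. Intervals were Poisson, Clopper-Pearson and conditional binomial, at 95%. Genes were named where they belonged to the rule, had most UMIs in a list or were 2-fold apart in it, were among the 10 with the largest ratio in either direction between stages, or among the 15 furthest over the rest. Genes compared within the cells, among them those of heat shock, were chosen after their values were seen. Shares in the gland were compared by an exact two-sided permutation test. Motifs were searched in the 250 bases before RefSeq gene starts of Sscrofa11.1. Scrublet (scanpy 1.11.5) called 0 cells doublets, so the 5% of cells with the highest scores were left out as an alternative. Among the chosen cells, 5.12% at L0 and 3.83% at L20 lay in that top 5%. Python 3.11.15, numpy 2.4.6, pandas 2.3.3, scipy 1.17.1, matplotlib 3.10.9 and pyfaidx 0.9.0.4 were used. Alternatives changed the cell filter, the rule, the exclusions, doublets, shared barcodes, depth, scaling, weighting and count minimum. Where cells were thinned to 1000 UMIs, those with fewer were left out. Some genes and 1 sequence are not reported here.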

Additional observations from a re-analysis of the deposited data

How the results depend on the processing

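No paired analysis was possible because each stage had 1 milk library and the gland replicate numbers only name samples. Counting intervals do not cover the spread between sows or the spread of UMIs between cells. The cells were chosen from the counts described, and their number at L0 is small. The share at L0 and L20 was 2.86% and 21.3% for cells of 500 or more genes and up to 10% mitochondrial UMIs. It was 5.94% and 15.4% with at least 2 of the 7 genes, and 0.222% and 7.57% with at least 4. Without CSF3 and CTSL it was 0.979% and 8.42%, and with no excluded genes 2.64% and 14.9%. With cells thinned to 1000 UMIs it was 1.05% and 12.5%, over the 13004 and 10648 cells that had that many. The share was higher at L20 in all 6. Genes higher at L20 numbered 419 with thinned cells, 495 with a median of ratios, 226 with the same CPM minimum and 379 with exactly 3 rule genes, the last 2 added after the data were seen. Genes lower at L20 numbered 138 with thinned cells, 484 with a median of ratios, 556 with a minimum of 20 UMIs, 583 with at least 2 rule genes, 93 with at least 4, 790 with no excluded genes and 173 with exactly 3. Against the rest, genes higher numbered 404 with thinned cells, 425 with at least 4 rule genes and 252 with no excluded genes, and genes lower 417, 426 and 762, and 1863 with at least 2. The ratio of L20 over L0 turned direction for CSF3 (0.326), CYP1B1 (0.641) and MSR1 (1.09) with exactly 3 rule genes, for C1QB (1.17) and SIGLEC1 (0.565) with at least 4, for SIGLEC1 (0.910) without CSF3 and CTSL, and for CST3 (1.17), LDHA (1.03), MRC1 (0.953) and MSR1 (1.26) with no excluded genes. Of 83 named genes called between the stages, 30 were called under all 16 alternatives. The causes were not tested. The gland difference of 0.0214 percentage points was 0.00515 to 0.0298 with 1 gland left out, lowest without replicate 1 of L20, 0.00777 for nuclei of 500 or more genes and up to 5% mitochondrial UMIs, and 0.157 with at least 2 genes of the rule, with p from 0.167 to 0.667 in the exact permutation test.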
